A study of Danio rerio with 2 samples.

Results

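The apolipoproteins described here are protein components of the particles that carry fat in plasma, and 10 zebrafish genes of liver, gut and yolk were listed: apoa1, apoa2, apoa4, apobl, apoc1, apoc2, apoea, apoeb, apom and apoh. Of these, 9 were found among the 27458 gene symbols of the table and 1, apoh, matched none. Symbols spelled as listed gave 6 members, capitals gave 1 (APOM), and synonyms in the RefSeq gene table gave 2, apoc1 under the name apoc1l and apoa2 under the name zgc:193613. Levels came from RNA sequencing of 2 pools of 20 whole larvae at 5 days post-fertilization. One pool was homozygous for lri12, a mutation whose gene the labels do not name, and the other was its wild-type siblings of the same clutch. The labels give both pools the same rearing and neither of them another allele or treatment. With 1 pool per genotype, every difference below is between 2 libraries, has no replicate check and carries no test.

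Apolipoproteins coat lipoprotein particles and direct where the fat goes. ApoB is the large protein on which very low density lipoproteins and chylomicrons are built, and the microsomal triglyceride transfer protein loads it with lipid in hepatocytes, enterocytes and, in fish, the yolk syncytial layer, which exports yolk lipid to the larva. Apolipoproteins of the A, C and E classes are smaller, can move between particles, form high density lipoprotein, control lipases and serve as receptor ligands.

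The members were abundant in both pools and did not differ alike. Of 9, 2 were at least 1.5-fold lower in the mutant pool, apoa4 and apobl, and 0 were at least 1.5-fold higher. Levels are in FPKM (fragments scaled by transcript length and by library size). Across the 18664 genes whose level averaged 1 FPKM or more over both pools, 1.68% were at least 1.5-fold lower and 0.804% at least 1.5-fold higher. Among the 1485 genes that averaged 50 FPKM or more, a group closer to the members in level and chosen after the values were seen, those shares were 4.04% and 1.14%. At 1.2-fold, 4 members were lower and 0 higher, against 7.39% and 5.9% of all genes. At 2-fold the counts of members were 0 and 0, against 0.439% and 0.289% of all genes. Folds and differences are of log2((mutant FPKM + 1)/(wild-type FPKM + 1)). The median difference of the 9 was -0.26, with 7 below 0 and 2 above. Over all 18664 genes the median was 0.004, with 9084 below 0 and 9580 above. All 9 entered the comparison, and each was above at least 96.0% of the genes in wild type by level.

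**Figure D1:**
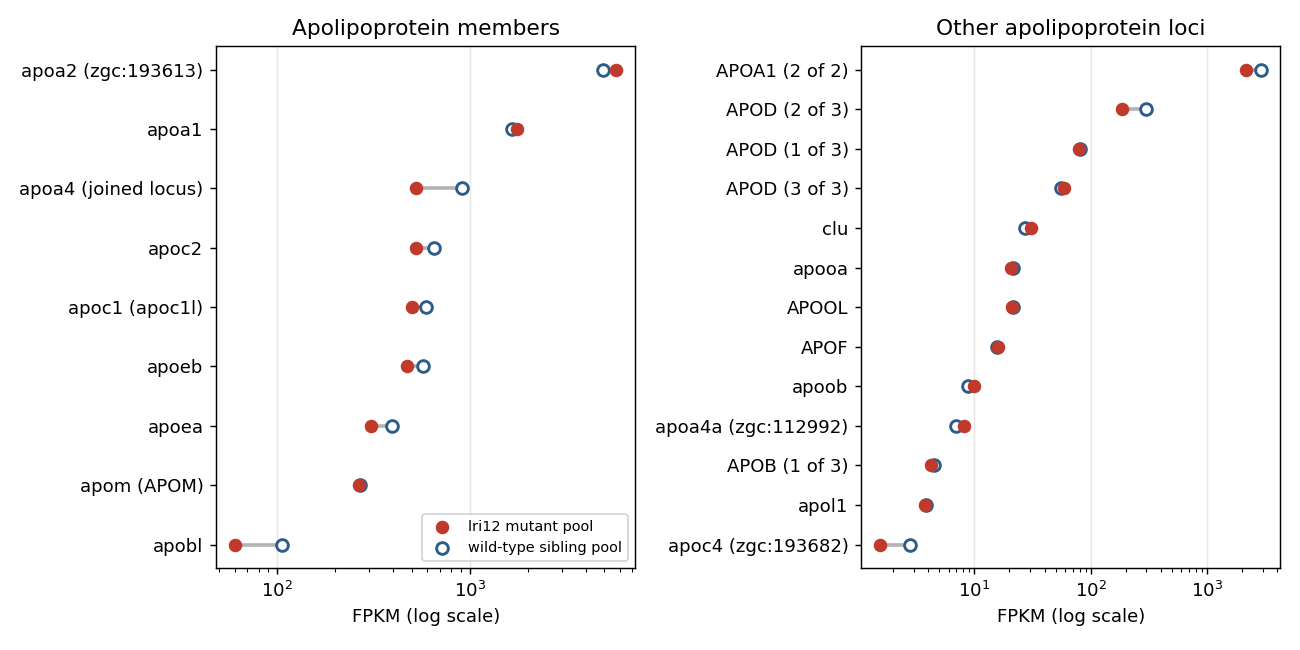
Level of each apolipoprotein member (left) and of the entering loci of a chosen list of other apolipoproteins (right), in FPKM on a log axis. Filled points are the lri12 mutant pool and open points the wild-type sibling pool. The gaps between points are wide for apobl and apoa4, and for apoa2 and apoa1 the mutant point lies to the right.

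Among the listed members, apoa2 and apoa1, genes of main high density lipoprotein proteins, stood highest in level and were slightly higher in the mutant. The most abundant was apoa2, a main protein of high density lipoprotein, at zgc:193613 on chromosome 16 (26218270 to 26219647). It stood at 5768 FPKM in the mutant pool, against 4944 FPKM in the wild-type pool, a difference of 0.22. It made up 56.6% of the members' summed FPKM in the mutant and 48.9% in wild type. Next of the listed members came apoa1, the defining protein of high density lipoprotein and cofactor of the cholesterol-esterifying enzyme LCAT, on chromosome 5 (39578957 to 39581978). It stood at 1755 FPKM in the mutant and 1664 FPKM in wild type, a difference of 0.08. These differences are smaller than 1.2-fold.

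A second apolipoprotein A-I locus differed the other way. The locus named APOA1 (2 of 2), on chromosome 15 (2640 to 5504), is not a listed member and was added after its values were seen. It stood at 2138 FPKM in the mutant and 2922 FPKM in wild type, a difference of -0.45, and was above apoa1 in both pools. Summed with apoa1, apolipoprotein A-I transcripts stood at 3893 FPKM in the mutant and 4586 FPKM in wild type, a difference of -0.24 on the log2 scale without a pseudocount. How reads were divided between related copies is not stated in the labels.

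The 2 members with the largest differences were lower in the mutant by nearly the same factor. ApoA-IV, the product of apoa4, is made in mammals by enterocytes when fat is absorbed and rides on chylomicrons. Its row joins 3 gene models, apoa4, si:dkey-7f3.15 and zgc:194131, over one stretch of chromosome 16 (26153312 to 26187831), which RefSeq names as 3 neighbouring apoa4b genes, so the value is that of the joined locus. One other row, si:dkey-7f3.14, shares that span and was listed at 0 in both pools. The joined apoa4 locus stood at 525 FPKM in the mutant and 910 FPKM in wild type, 1.73-fold lower (difference -0.79). The apolipoprotein B gene apobl, on chromosome 20 (31243402 to 31334713), stood at 60.4 FPKM in the mutant and 105 FPKM in wild type, also 1.73-fold lower (difference -0.79). Its reported span is shared by 3 other rows, pdip5, SLC22A16 and HPCAL1, of which pdip5 stood at 45.7 FPKM in the mutant and 41.5 FPKM in wild type. The p of apoa4 was 0.0259 and that of apobl 0.03565 in the authors' deposited table, where q was 0.999 for all 9 members. Those values also rest on 1 pool against 1 pool.

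Measured against each other, apoa2 and apobl transcripts stood in different proportions in the 2 pools. This pair sets the member with the highest difference, 0.22, against 1 of the 2 with the lowest, -0.79. On the FPKM scale, which is per transcript length, there were 95.4 apoa2 transcripts for each apobl transcript in the mutant and 46.9 in wild type. The ratio of apobl to apoa4 was 0.115 in the mutant and 0.116 in wild type. Other apolipoprotein B loci were low: APOB (1 of 3) stood at 4.204 FPKM in the mutant and 4.484 FPKM in wild type, and APOB (3 of 3) stayed under the level filter at 0.384 FPKM in the mutant and 0.307 FPKM in wild type.

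**Figure D2:**
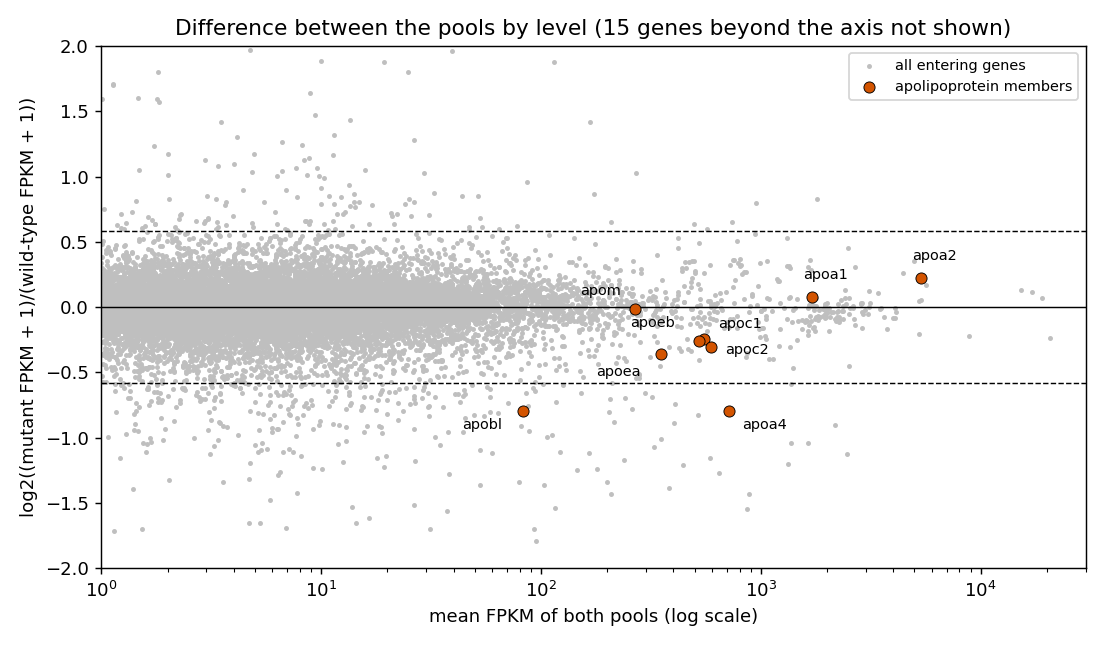
Difference between the pools, as log2((mutant FPKM + 1)/(wild-type FPKM + 1)), against the mean FPKM of both pools on a log axis, with the 9 apolipoproteins as labelled points over all 18664 genes in grey and dashed lines at 1.5-fold. Only apoa4 and apobl of the 9 lie past the lower line, and 15 genes beyond the vertical axis are not drawn.

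The C and E apolipoproteins were all lower in the mutant by less than 1.5-fold. Among the C class, apoc2, the obligate cofactor of lipoprotein lipase, on chromosome 16 (26224047 to 26230454), stood at 528 FPKM in the mutant and 654 FPKM in wild type, 1.24-fold lower. The gene apoc1, whose mammalian product inhibits lipoprotein uptake and lipid transfer, at apoc1l on chromosome 16 (26211418 to 26213014), stood at 503 FPKM in the mutant and 595 FPKM in wild type, 1.18-fold lower. The ratio of apoc2 to apoc1 was 1.05 in the mutant and 1.099 in wild type.

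Apolipoprotein E is the ligand by which remnant particles bind receptors of the LDL receptor family. Of its 2 zebrafish genes, apoea, on chromosome 19 (11954417 to 11958954), stood at 306 FPKM in the mutant and 394 FPKM in wild type, 1.29-fold lower. Its partner apoeb, also a marker of microglia in zebrafish, on chromosome 16 (26200036 to 26202754), stood at 474 FPKM in the mutant and 568 FPKM in wild type. The difference was -0.36 for apoea and -0.26 for apoeb. Of 10 macrophage and microglia genes that entered, 8 were below 0 and 2 above, against 9084 and 9580 of all 18664 genes. Their median was -0.06. At 1.5-fold, 0 of the 10 were lower and 0 higher, against 1.68% and 0.804% of all genes. At 1.2-fold, 2 of the 10 were lower and 0 higher, against 7.39% and 5.9% of all genes. Their summed level was 99.0 FPKM in the mutant and 109 FPKM in wild type. Among them, slc7a7 stood at 17.4 FPKM in the mutant and 23.2 FPKM in wild type, spi1 at 2.69 FPKM in the mutant and 3.72 FPKM in wild type, and CD68 at 48.1 FPKM in the mutant and 50.4 FPKM in wild type. The 2 above 0 were the row joining c1qa and c1qc, at a difference of 0.26, and P2RY6, at 0.15. Near 0 were mpeg1, at -0.06, and mfap4, at -0.01. P2RY12, MARCO and c1qb were under the filter, with differences of 0.11, -0.01 and 0.14. The part of these cells in the apoeb value was not tested.

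APOM, the gene of a lipocalin that carries sphingosine-1-phosphate on high density lipoprotein in mammals, was nearly level. On chromosome 2 (42329858 to 42335679), it stood at 265 FPKM in the mutant and 268 FPKM in wild type, a difference of -0.01. Summed over the 9 members, the FPKM was 10185 in the mutant and 10103 in wild type, a difference of 0.01. Without apoa2 the sum was 4416 FPKM in the mutant and 5158 FPKM in wild type, a difference of -0.22. In order of level, the members ranked alike in both pools except that apoc2 stood above apoa4 in the mutant and below it in wild type. In the mutant, apoc2, apoa4 and apoc1 lay between 503 and 528 FPKM, and with 1 pool no spread shows whether these neighbours differ.

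Several members lie close together, and the members with small and large differences are neighbours there. Between 26153312 and 26230454 on chromosome 16, a stretch of 77.1 kb, the table holds 6 tested loci, all apolipoproteins: the joined apoa4 locus, apoeb, apoc1l, zgc:193682, zgc:193613 and apoc2. Of these, 5 were lower in the mutant and 1, apoa2 (zgc:193613), was higher, against 9084 and 9580 of all 18664 genes. The locus zgc:193682, the RefSeq synonym of apoc4, stood at 1.55 FPKM in the mutant and 2.77 FPKM in wild type, a difference of -0.56. It lies between apoc1 and apoa2, which were far more abundant. On chromosome 19, apoa4a, matched to zgc:112992, lies next to apoea and stood at 8.14 FPKM in the mutant and 6.95 FPKM in wild type, a difference of 0.20. The difference of its neighbour apoea was -0.36.

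**Figure D3:**
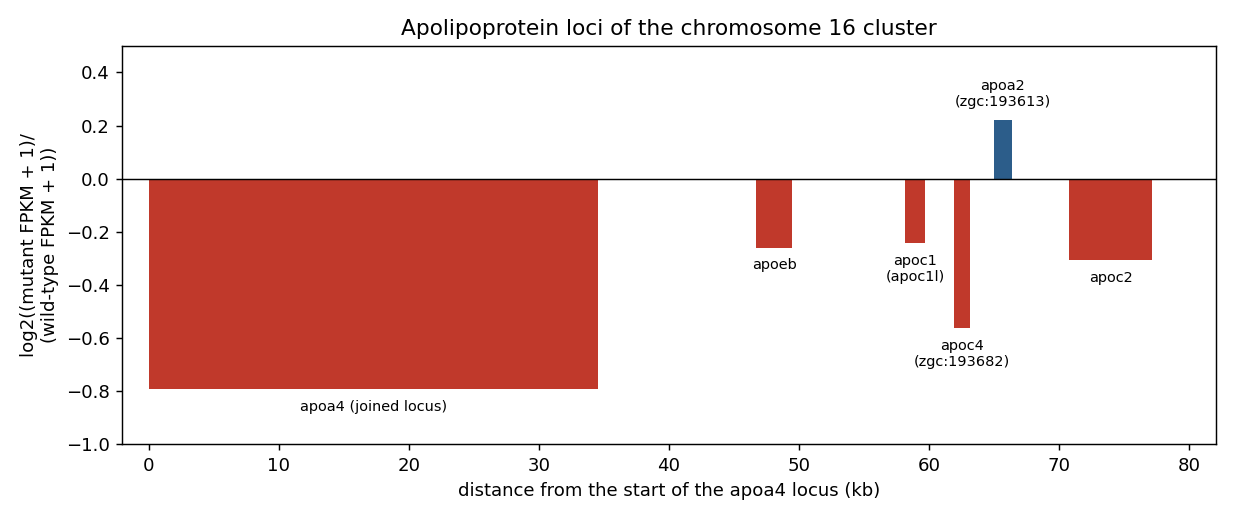
Map of the 6 tested loci of the chromosome 16 cluster, with the distance from the start of the apoa4 locus in kb on the horizontal axis and log2((mutant FPKM + 1)/(wild-type FPKM + 1)) on the vertical axis. Bars span each locus, and all point down (lower in the mutant) but the one of apoa2, at 0.22.

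Of a chosen list of other apolipoprotein loci, which does not hold APOL2, 13 entered, with a median of -0.02. At 1.5-fold, 1 of them was lower and 0 higher, against 1.68% and 0.804% of all genes. That locus was APOD (2 of 3), of the lipocalin apolipoprotein D, on chromosome 2 (36928293 to 36936822), at 184 FPKM in the mutant and 298 FPKM in wild type. APOD (3 of 3), with the same reported span, stood at 58.4 FPKM in the mutant and 55.3 FPKM in wild type, and APOD (1 of 3) at 79.2 FPKM in the mutant and 81.3 FPKM in wild type. Clusterin, clu, also called apolipoprotein J, stood at 30.5 FPKM in the mutant and 27.5 FPKM in wild type. The mitochondrial proteins that share the name, apooa, APOOL and apoob, ranged from -0.05 to 0.14, and APOF and apol1 were at 0.04 and -0.02. Serum amyloid saa was under the filter.

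In a chosen list for lipoprotein assembly and secretion, which also holds genes of lipid synthesis, those past 1.5-fold were lower in the mutant. Of 33 that entered, 3 were at least 1.5-fold lower and 0 higher, against 1.68% and 0.804% of all genes, and 7 were at least 1.2-fold lower and 1 higher, against 7.39% and 5.9%. The median was -0.11, with 22 below 0 and 11 above, against 9084 and 9580 of all 18664 genes. The 3 past 1.5-fold make triglyceride or activate fatty acids: the acyl-CoA synthetase acsl5 stood at 21.9 FPKM in the mutant and 39.9 FPKM in wild type, the diacylglycerol acyltransferase dgat2 at 23.4 FPKM in the mutant and 37.6 FPKM in wild type, and the monoacylglycerol acyltransferase mogat2 at 15.6 FPKM in the mutant and 25.1 FPKM in wild type. The desaturase fads2 followed at 10.4 FPKM in the mutant and 15.4 FPKM in wild type. The transfer protein gene mttp, listed as mtp and named for its role after its value was seen, stood at 10.98 FPKM in the mutant and 14.39 FPKM in wild type, a difference of -0.36. The phospholipase-like factor pla2g12b, needed for lipoprotein secretion and named on the same ground, stood at 120 FPKM in the mutant and 131 FPKM in wild type. Others of the list, also named after their values were seen, lay on both sides of 0. Differences were 0.19 for sec23b, 0.18 for sar1a, 0.10 for p4hb, -0.11 for mia3 and -0.13 for surf4.

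Of 28 receptors and exporters that entered, 3 were at least 1.5-fold lower and 0 higher, against 1.68% and 0.804% of all genes, and 9 were at least 1.2-fold lower and 1 higher, against 7.39% and 5.9%. The median was -0.05. Past 1.5-fold were the fatty acid transporter cd36, at 35.3 FPKM in the mutant and 63.5 FPKM in wild type, the lipid transporter ABCA7, at 2.28 FPKM in the mutant and 5.18 FPKM in wild type, and the sterol exporter abcg5, at 1.62 FPKM in the mutant and 3.03 FPKM in wild type. The sterol uptake protein NPC1L1 followed at a difference of -0.49 and abca1a, which loads cholesterol onto apolipoprotein A-I, at -0.39. The receptor adaptor ldlrap1a was higher, at 9.80 FPKM in the mutant and 7.32 FPKM in wild type. The receptor gene ldlr itself, named for its role, stood at 15.2 FPKM in the mutant and 14.9 FPKM in wild type.

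Lipases and plasma remodelling proteins held 0 of 17 members past 1.5-fold in either direction, against 1.68% of all genes lower and 0.804% higher. The nearest to that limit was PNPLA2, 1.499-fold lower, at 3.41 FPKM in the mutant and 5.62 FPKM in wild type. At 1.2-fold, 5 were lower and 0 higher, against 7.39% and 5.9% of all genes, and the median was -0.10. Among those furthest from 0 that averaged 5 FPKM or more were the lipase pnpla3 (zgc:92195) at -0.40, the lipid transfer protein cetp at -0.38 and ANGPTL4 at -0.25. Lipoprotein lipase, lpl, the enzyme that apoc2 activates, stood at 46.6 FPKM in the mutant and 45.4 FPKM in wild type. Among transcription factors of liver and lipid genes, 1 of 25 was at least 1.5-fold higher and 0 lower, against 0.804% and 1.68% of all genes. The 1 was cebpb, at 66.5 FPKM in the mutant and 36.4 FPKM in wild type. The median of the 25 was 0.03. Among those averaging 5 FPKM or more, the next in size were foxa3, rxraa and nr2f2, from 0.18 to 0.20. The less abundant nr1h4 and hnf4g were lower in the mutant, at -0.22 and -0.20, and hnf4a, a regulator of apolipoprotein genes named for its role, was at -0.17.

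The gene lists of gut and liver, organs that make apolipoproteins, had medians below 0. In whole larvae, fewer cells of a type and less RNA per cell cannot be told apart. Of 17 enterocyte genes that entered, all were below 0, against 9084 of all 18664 genes. At 1.5-fold, 11 of the 17 were lower and 0 higher, against 1.68% and 0.804% of all genes. The median of the 17 was -0.65, and their summed level was 2066 FPKM in the mutant and 3381 FPKM in wild type. The locus joining fabp1b.1 and fabp1b.2 stood at 1098 FPKM in the mutant and 1653 FPKM in wild type, and fabp2, another fatty acid binding protein, at 371 FPKM in the mutant and 660 FPKM in wild type. Furthest from 0 were the chitinase chia.3, at -1.56, and the bile acid binding protein fabp6, at -1.17. Of the 17, mogat2 was also counted above in the list for lipoprotein assembly and secretion, and NPC1L1 among the receptors and exporters. Of hepatocyte genes, 7 of 21 were at least 1.5-fold lower and 1 higher, against 1.68% and 0.804% of all genes. The 1 higher, serpina1, passed the filter only through its level in the mutant pool. The median of the 21 was -0.32, and their summed level was 2954 FPKM in the mutant and 3948 FPKM in wild type. The hepatocyte genes spread widely, with 15 below 0 and 6 above, against 9084 and 9580 of all 18664 genes. Near 0 were the fibrinogen genes fga, fgb and fgg, at -0.10, -0.09 and 0.09. The complement genes c3a and c9 were at 0.13 and 0.10. At least 2-fold lower were 5 of the 21 hepatocyte genes, ahsg, tat, fabp10a, gc and fetub, against 0.439% of all genes. Of these 5, ahsg, a fetuin gene, lay furthest from 0 at 1.75 FPKM in the mutant and 7.65 FPKM in wild type. Of the most abundant, fabp10a stood at 363 FPKM in the mutant and 811 FPKM in wild type but rbp4 at 1269 FPKM in the mutant and 1350 FPKM in wild type, and serpina1 stood at 2.27 FPKM in the mutant and was listed at 0 in wild type. The median of the members was -0.26, beside -0.32 for the hepatocyte list, -0.65 for the enterocyte list and -0.14 for the yolk list below. Both apoa4 and apobl, at -0.79, were lower than each of these medians. The part of each organ in any member's difference was not tested.

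The vitellogenin rows, whose transcripts are made in the liver of the mother and so do not measure yolk, were all under the filter: the row joining vtg1, vtg4, vtg5 and vtg7 stood at 0.282 FPKM in the mutant and 0.259 FPKM in wild type, and vtg6 was listed at 0 in both. Of the 5 genes of the yolk and yolk syncytial layer list that entered, 1 was at least 1.5-fold lower and 0 higher, against 1.68% and 0.804% of all genes. That gene was the cathepsin ctsl.1, at 44.7 FPKM in the mutant and 114 FPKM in wild type. Another cathepsin of the list, ctslb (ctsl1b), went the other way under the filter, at 1.59 FPKM in the mutant and 0.200 FPKM in wild type, a difference of 1.11. The selenoprotein sepp1a stood at 655 FPKM in the mutant and 657 FPKM in wild type, and the vitamin E carrier ttpa at 11.3 FPKM in the mutant and 13.1 FPKM in wild type. The 5 genes summed to 752 FPKM in the mutant and 829 FPKM in wild type, and the part of yolk in any member's difference was not tested.

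**Figure D4:**
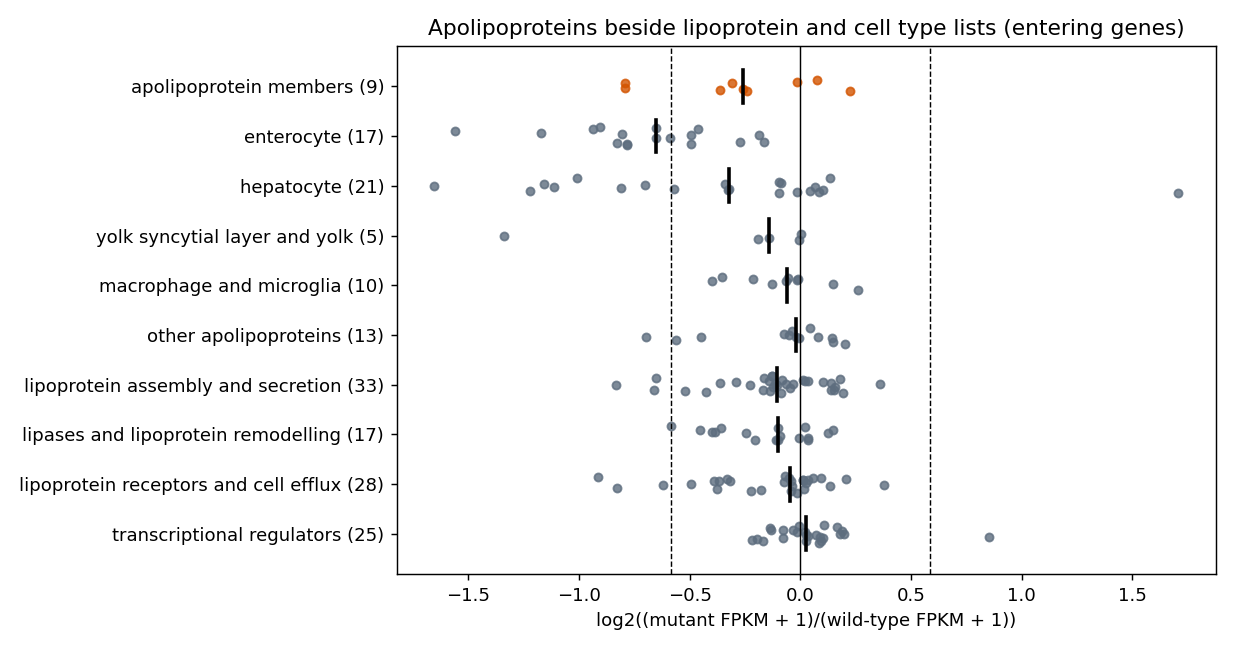
Difference between the pools, as log2((mutant FPKM + 1)/(wild-type FPKM + 1)), for the apolipoprotein members and 9 lists, with 1 point per entering gene, the number of genes in brackets, a black bar at the median and dashed lines at 1.5-fold. The apolipoproteins have a median of -0.26 and the enterocyte genes one of -0.65, while the transcriptional regulators centre near 0.

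Over these 2 libraries, likeness can be measured only as the gap between log2 differences. Among 126 other list genes that averaged 5 FPKM or more, those nearest to the joined apoa4 locus, at a gap of 0.011 to 0.013, included anpepb (9.25 FPKM in the mutant and 16.6 FPKM in wild type) and rbp2a (191 FPKM in the mutant and 329 FPKM in wild type). Both belong to the enterocyte list, of whose 17 genes 11 were at least 1.5-fold lower, against 1.68% of all genes. The hepatocyte gene ttr also lay close, at -0.81. Only list genes were compared, so this nearness does not show which cells held the apoa4 transcripts. Those nearest to apoa2, at a gap of 0.021 to 0.031, were apoa4a (zgc:112992), foxa3 and sec23b, each higher in the mutant.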

How the data were processed

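The table holds 1 row for each of 40114 loci, in the layout of a Cuffdiff comparison, per the file headers. The deposited values were taken as FPKM, since no label states the unit. Its p-values and q-values, also deposited, come from the authors. CASAVA, Bowtie and the build Zv9 are named, without versions, per the submitters' processing notes. The annotation used and the handling of strand and of reads with several matches are not stated there. Coordinates are Zv9 locus spans as deposited, and their counting base is not stated.

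The 19 failed loci and those without a symbol were left out, and loci sharing a symbol were summed. Genes averaging 1 FPKM or more over both pools were compared with a pseudocount of 1, in Python 3.11.15 with pandas 2.3.3, after the arithmetic was tested on simulated data. List genes were matched by symbol, by capitals or by RefSeq synonym (assembly GRCz12tu, names only). No sequence is shown, and some genes that the naming rule picks are not reported here. Read depth is not given: among 2942 loci under 0.3 FPKM, the most frequent log2 ratio, mutant over wild type, was -0.15 (309 loci within 0.01), which equal read numbers would give at 1.11 mutant reads for each wild-type read. No counting interval could be made.

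Members and lists were chosen with earlier results of these data known. The genes named were every member and every locus found of the list of other apolipoproteins. From each pathway list came the 4 genes furthest from 0 that averaged 5 FPKM or more, and any past 1.5-fold. From each cell type list came those highest in wild type or furthest from 0. Some other genes of these lists were named after their values were seen. Alternatives were no filter, a filter at 5 FPKM, pseudocounts of 0.1 and 5, a median set to 0, the highest locus per symbol and tested loci alone. Added after seeing the data were strict spelling of members, the APOA1 (2 of 2) locus, leaving out apoa2 and the background of abundant genes.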

Additional observations from a re-analysis of the deposited data

How the results depend on the processing

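Each member kept its direction, its side of 1.5-fold and its value within 0.1 under the 7 alternatives planned, 63 comparisons in all. The counts of 2 lower and 0 higher members and the median held within the same limits under those alternatives and under the 2 added choices of members. The difference of the summed FPKM, 0.01 as reported, was -0.24 with symbols spelled as listed only and -0.22 without apoa2, since both leave out apoa2. It was also below 0 with the APOA1 (2 of 2) locus added, at -0.08, and over the members and the other apolipoproteins of the list, at -0.09. The hepatocyte median, -0.32 as reported, was -0.19 with a pseudocount of 5 and -0.21 with a filter at 5 FPKM. The yolk median, -0.14 as reported, was -0.015 without a filter, which adds the list genes of low level that were not listed at 0 in both pools. No paired analysis was possible because each genotype has 1 pool. Depth is not given, so the limits of low loci such as apoc4, which is no listed member, are unknown.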
